A study of Homo sapiens with 4 samples.

Results

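MHC class I presentation was followed through 9 genes: the heavy chains HLA-B, HLA-C and HLA-E, the light chain B2M, the peptide transporter subunits TAP1 and TAP2, tapasin (TAPBP), the trimming enzyme ERAP1 and the transcriptional activator NLRC5. The genes were taken by symbol from tables of 28063 genes, in which all 9 have a row. The cells were KELLY, a human neuroblastoma line with amplified MYCN. They carried lentiviral FLAG-tagged IWS1, a transcription elongation factor, either in the wild-type form (WT, 2 libraries) or in a mutant form in which its TIM3 motif was disrupted (M3, 2 libraries). Both groups were selected with puromycin at 1 ug/ml in medium with 10% serum and collected at 50% confluency, no group without transduction was analysed here, and the endogenous IWS1 gene was not said to be removed. Poly(A) RNA was sequenced, with 12289685 to 20962372 reads assigned to genes per library. Separate cultures are not named in the labels for the libraries of a group, and p-values then reflect only the spread between libraries, which may be technical. In bulk RNA, fewer cells that express a gene and less of its RNA per cell cannot be told apart.

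Class I molecules display short peptides from inside the cell to CD8 T cells, and they also engage receptors of natural killer cells. Peptides are cut by proteasomes, carried into the endoplasmic reticulum by the TAP1-TAP2 transporter, trimmed by ERAP1 and loaded with the help of tapasin onto a heavy chain that is paired with B2M. NLRC5 raises transcription of these genes through a promoter module bound by RFX, CREB or ATF1 and NF-Y factors, while interferon acts through IRF and other factors. Neuroblastoma with amplified MYCN is known for low class I.

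The proximal promoters of B2M and the 2 heavy-chain members with reads are shown for elements of NLRC5 partners and, in B2M, interferon factors. They are RefSeq sequences of GRCh38.p14, the reference and not the alleles of the cell line, from 200 to 41 bases before the start site, 5′ to 3′ along the gene. B2M lies at chr15:44711317-44711476 (plus strand), HLA-C at chr6:31272133-31272292 (minus strand) and HLA-B at chr6:31357220-31357379 (minus strand). Capitals mark matches on either strand to GAAA, any 2 bases and GAAA again (an interferon-stimulated response element, ISRE), to GGG, any 2 bases and TTCCC (NF-kB type), and to TGACG (the core of a cAMP response element, the X2 part of the module) and CCAAT (the NF-Y box).

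B2M: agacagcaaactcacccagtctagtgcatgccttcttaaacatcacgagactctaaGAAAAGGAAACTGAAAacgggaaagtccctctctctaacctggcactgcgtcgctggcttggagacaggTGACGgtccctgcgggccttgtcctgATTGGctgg

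HLA-C: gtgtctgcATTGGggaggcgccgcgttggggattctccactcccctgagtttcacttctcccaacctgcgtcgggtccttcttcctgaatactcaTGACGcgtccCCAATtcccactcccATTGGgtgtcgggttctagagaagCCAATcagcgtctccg

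HLA-B: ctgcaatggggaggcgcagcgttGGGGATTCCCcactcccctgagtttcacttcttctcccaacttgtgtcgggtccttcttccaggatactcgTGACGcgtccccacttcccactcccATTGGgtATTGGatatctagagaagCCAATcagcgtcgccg

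All 3 promoters hold TGACG followed by at least 1 CCAAT box closer to the start site. The 7 members with a RefSeq promoter (250 bases upstream) have 9 windows, since TAP1 and ERAP1 have 2 each. The percentages are shares of all such windows. TGACG was found in 4 members and 4 of the 9 windows, against 21.2% of 35116 promoters. CCAAT was found in 5 members and 5 of the 9 windows, against 32.0%. The NF-kB type was in HLA-B and ERAP1 only, 2 of the 9 windows, against 1.97%. The ISRE form was found in B2M, TAP1, TAP2 and TAPBP, 4 of the 9 windows, against 3.02% of all promoters. In B2M, TAP1 and TAPBP 2 matches overlap each other. The MYC-type E-box CACGTG was in none of the members' windows and in 6.34% of all, and the full element TGACGTCA in none and in 1.65%. Looser forms of these elements were not searched. A promoter without a match, such as HLA-C or HLA-B for the ISRE, may still hold such a form. A match is a description of these letters and not of binding.

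The counts of 6 members come from the MHC on the short arm of chromosome 6, a stretch in which most genes had few reads. Between HLA-F and the end of TAPBP (chromosome 6, 29723434 to 33314078, GRCh38) the tables hold 138 protein-coding genes. Of these, 56 (40.6%) had 0 reads in every library, against 17.4% of the 864 others on chromosome 6. Only 10 (7.25%) exceeded a mean of 10 CPM (reads scaled to sequencing depth, with TMM factors), against 44.1% on the rest of the chromosome. Of the 20 protein-coding genes around HLA-C, 10 on each side by gene order, none exceeded 10 CPM and 11 had no read. Of the 20 taken in the same way around TAPBP, none was without reads and 5 exceeded 10 CPM (median 3.33 CPM). Among these, RPS18 (15.9 CPM) and WDR46 (16.0) lie inside the stretch, and CUTA (18.5), BAK1 (24.0) and UQCC2 (25.6) lie beyond its end. The CUTA mean rests on WT library 2 at 58.3 CPM, with 7.13 in WT library 1 and 3.35 and 5.18 with M3. Some genes inside the stretch had many reads, among them the tubulin gene TUBB at a mean of 118.8 CPM, PRRC2A at 41.3, the chromatin reader BRD2 at 39.7 and the ubiquitin ligase RNF5 at 27.4.

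**Figure D1:**
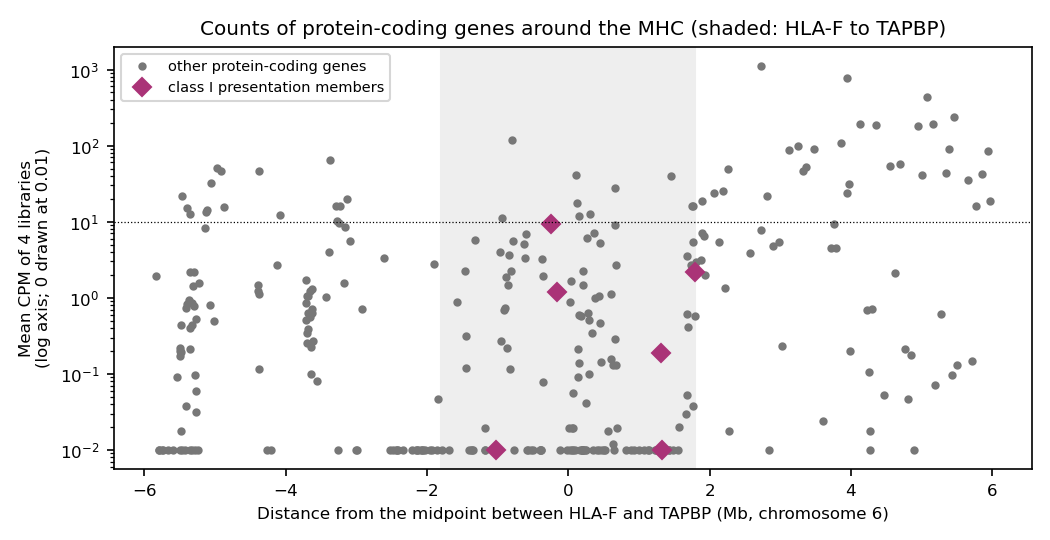
Mean CPM of each protein-coding gene (points, log axis) against distance in Mb from the midpoint between HLA-F and TAPBP, with the members as diamonds and genes without reads drawn at 0.01. In the shaded stretch 10 of 138 genes lie above the dotted line at 10 CPM, and HLA-E and TAP1 lie among the genes without reads.

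DDX39B, an RNA helicase of splicing and mRNA export, and RPP21, a subunit of RNase P, had 0 reads in all 4 libraries. For 10 genes of the stretch that work with partners encoded elsewhere, levels are given per kb of transcript. These genes were chosen after their values were seen and leave out genes such as TUBB and BRD2, so they describe single genes and not the stretch. In 8 of 10 the MHC gene lay below every partner. The ribosomal protein gene RPS18 was at 26.0 CPM per kb, where the median of 30 other genes of the small subunit was 763. LSM2 was at 0.722 against a median of 22.4 for 7 other LSM genes, NELFE at 0.660 against 50.5 for 3 other NELF subunits, and VARS at 1.42 against 52.5 for 17 other aminoacyl-tRNA synthetases. Casein kinase 2 was the closest to its partners, with CSNK2B at 11.1 CPM per kb and the catalytic subunits at a median of 16.1. RPS18 and GTF2H4 (1.93 CPM per kb) were not the lowest of their groups, since RPS9 (8.55) and GTF2H2 (0.0608) were lower. The lowest partner of RPP21, RPP14, was itself at only 0.0216 CPM per kb.

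**Figure D2:**
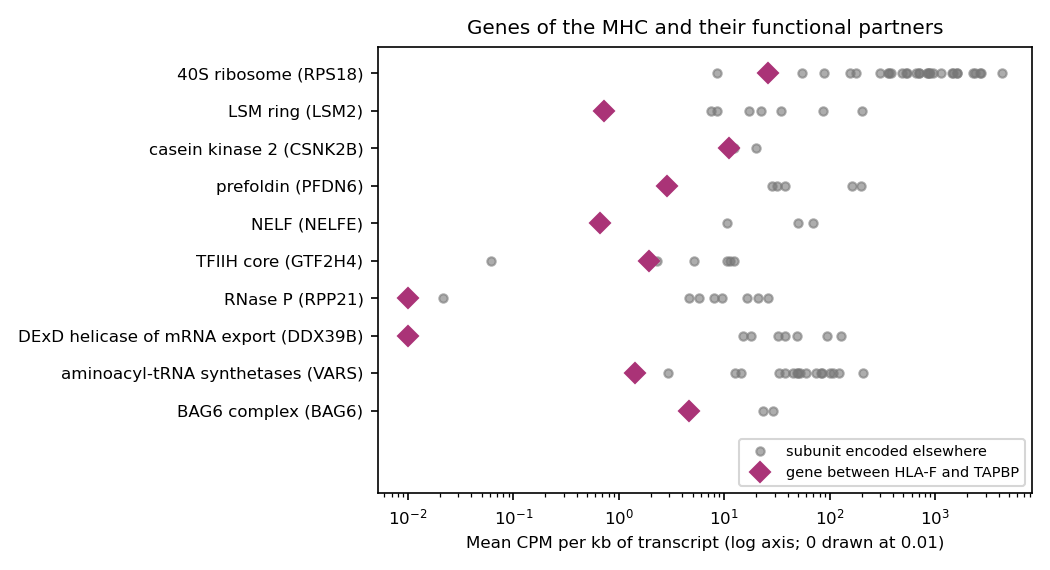
Mean CPM per kb of transcript (log axis, 0 drawn at 0.01) for 10 genes between HLA-F and TAPBP (diamonds) and for genes of the same complex or family encoded elsewhere (points). The diamond is the lowest value in 8 of 10 rows, and DDX39B and RPP21 have no reads.

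Counts in the stretch also varied more between libraries of 1 group. Among tested genes with a mean of 50 to 200 reads, the median difference between the WT libraries was 0.55 on the log2 scale for 15 genes of the stretch and 0.27 for 110 genes of the rest of chromosome 6. Between the M3 libraries it was 0.44 and 0.17. The prefoldin gene PFDN6 had 2 and 7 reads with WT, and 268 and 5 with M3. The cause of the low counts was not tested, and low expression and a low yield of counted reads cannot be told apart from these tables for HLA-B, HLA-C, HLA-E, TAP1, TAP2 and TAPBP. B2M, ERAP1 and NLRC5 lie on chromosomes 15, 5 and 16. Of the 20 protein-coding genes around each, 10 on each side, 8, 7 and 9 exceeded 10 CPM (medians 5.11, 5.11 and 1.44 CPM).

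B2M, the light chain that every class I molecule needs, was the member of highest level, at a mean of 20.5 CPM per kb, above 75.7% of 13703 tested genes with a known transcript. Its reads numbered 482 and 620 with WT and 358 and 616 with M3. These are 38.6 and 29.5 CPM with WT against 27.9 and 43.7 CPM with M3. The M3 libraries hold both the lowest and the highest value, so the groups overlap. The group means were 34.0 ± 6.47 CPM (SD, n = 2) in WT and 35.8 ± 11.2 in M3. The log2 fold change was 0.08 ± 0.22 (SE; edgeR adjusted p = 0.820). The sign of this value turned when M3 library 2 was left out (-0.29), so neither a rise nor a fall of B2M was measurable here. B2M shared no window of 50 bases with another gene's transcripts.

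HLA-C, a classical heavy chain that also serves as a ligand of killer cell receptors, had the most reads of the heavy-chain members. Its values were 13.9 and 8.27 CPM in WT libraries 1 and 2 against 7.64 and 8.09 CPM with M3, from 173, 174, 98 and 114 reads. WT library 1 stood above the other 3, which lay close together. The log2 fold change was -0.47 ± 0.26 (SE; edgeR adjusted p = 0.223), and it was -0.08 without WT library 1. With the trends of counts on length and GC content of transcripts removed it was -0.04. Without WT library 2 it was -0.82 with an edgeR adjusted p of 0.00121, the only setting in which HLA-C passed.

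HLA-B, also a classical heavy chain, had 18 and 38 reads in WT libraries 1 and 2 against 9 and 11 with M3. That is 1.44 and 1.81 CPM with WT against 0.701 and 0.781 with M3, so both M3 libraries lay below both WT libraries. The log2 fold change was -1.14 ± 0.44 (SE), with an unadjusted p of 0.0312 and an edgeR adjusted p of 0.105, and so did not pass. With the length and GC trends removed it was -0.76. In GENCODE release 29, 25.5% of the exonic bases of HLA-B lie in other annotated genes, HLA-C among them, which makes its count uncertain. HLA-B and HLA-C shared 2.54% and 6.71% of their windows of 50 bases with other genes' transcripts.

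HLA-E, the heavy chain that presents signal peptides of other class I chains to NKG2A receptors, had 0 reads in all 4 libraries. A count of 0 allows up to 3 reads, or 0.143 to 0.240 CPM per library, by counting error alone. The related genes HLA-F and HLA-G, in the same stretch, were also at 0.

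Of the peptide transporter, TAP1 had no read in any library and TAP2 had 6 and 4 reads in WT libraries 1 and 2 against 1 and 0 with M3. These counts were too low to be tested. TAP2 shares 33.4% of its exonic bases with another annotated gene. Tapasin, which bridges the transporter and the empty heavy chain, was at 0.895 and 0.329 CPM per kb in WT libraries 1 and 2 and at 0.560 and 0.510 with M3. The WT libraries lay on both sides of the M3 pair, and the log2 fold change was -0.13 ± 0.49 (SE; edgeR adjusted p = 0.872). Leaving out WT library 1 gave 0.69, and leaving out WT library 2 gave -0.75.

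ERAP1, which trims peptides in the endoplasmic reticulum to the length that class I holds, had the largest difference in the direction of M3. ERAP1 reads numbered 81 and 212 in WT libraries 1 and 2 against 202 and 188 with M3. The levels were 6.49 and 10.1 CPM with WT against 15.7 and 13.3 CPM with M3, and neither M3 library reached down to the WT range. The log2 fold change was 0.79 ± 0.23 (SE; edgeR adjusted p = 0.0514, unadjusted p = 0.00831), 1.73-fold higher in M3 and just short of the threshold of 0.05. ERAP1 passed with DESeq2 (adjusted p = 0.0462). After the trends of counts on length and GC content of transcripts were removed in every library, its log2 fold change was 0.38 with an edgeR adjusted p of 0.246.

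ERAP1 lies on chromosome 5 (96760813 to 96935854) beside the related aminopeptidase LNPEP, known for trimming peptides in endosomes during cross-presentation. The span of ERAP2, also related (96875984 to 96919716), lies within that of ERAP1. LNPEP (chromosome 5, 96936080 to 97037513) rose in M3, by a log2 fold change of 1.27 ± 0.32 (SE; edgeR adjusted p = 0.0353). Its levels were 2.96 and 6.27 CPM in WT libraries 1 and 2 against 12.8 and 10.3 with M3, with no overlap. As for ERAP1, WT library 1 was the lowest. With the length and GC trends removed LNPEP was at 0.60 and did not pass (edgeR adjusted p = 0.143). ERAP2 had 7 and 10 reads in WT and 9 and 11 in M3 and was not tested. CAST, the calpain inhibitor gene that overlaps ERAP1 exons, was at 0.38 ± 0.14 (edgeR adjusted p = 0.0879), and 6.51% of the exonic bases of ERAP1 lie in other genes.

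NLRC5, the activator of class I transcription, was the lowest of the members outside the MHC, at 0.207 CPM per kb, a level above 1.41% of the tested genes. Its reads were 12 and 33 in WT libraries 1 and 2 against 20 and 22 with M3. In CPM these are 0.961 and 1.57 with WT against 1.56 and 1.56 with M3, so WT library 1 alone was lower. The log2 fold change was 0.26 ± 0.42 (SE; edgeR adjusted p = 0.687), and -0.014 without WT library 1. NLRC5 shared no window of 50 bases with other transcripts. CIITA, the related activator of class II genes, had 2 reads in the 4 libraries together.

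**Figure D3:**
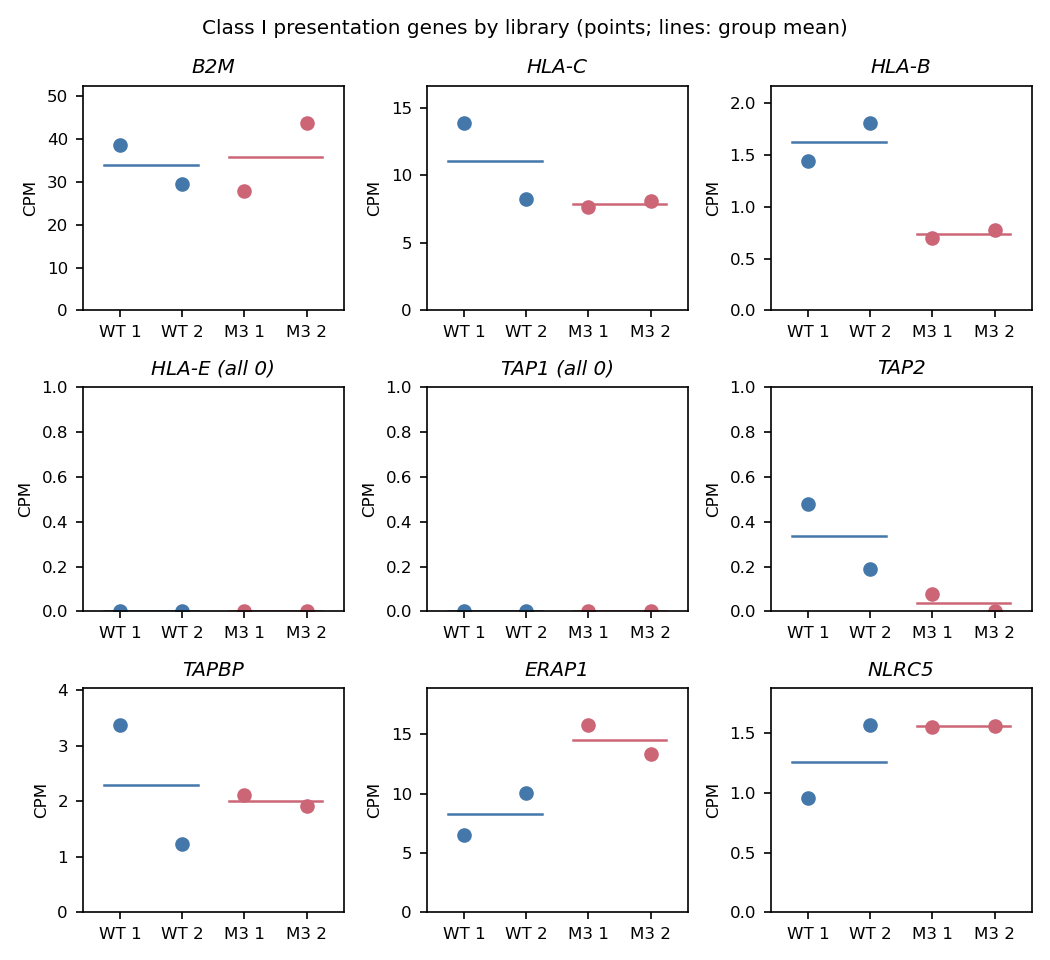
CPM of each member in each library (points: WT blue, M3 red; lines: group means, n = 2; linear axes from 0). ERAP1 is the member whose M3 libraries (15.7 and 13.3 CPM) lie above both WT libraries (6.49 and 10.1), and HLA-E and TAP1 are at 0 throughout.

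Read together, 6 of the 9 members had enough reads to be tested, and none passed at an adjusted p below 0.05, where 15.8% of all 14141 tested genes passed (9.16% higher and 6.63% lower in M3). By edgeR 2 of the 6, ERAP1 and HLA-B, had an unadjusted p below 0.05. DESeq2 gave an adjusted p for only 3 of the 6 and called ERAP1 among them. It gave none for HLA-B, TAPBP and NLRC5. The groups did not overlap in ERAP1, HLA-B and HLA-C, 3 of 6, against 68.2% of all tested genes. The 6 had a median log2 fold change of -0.03 against -0.0065 for all tested genes. The number that passed was 2 without WT library 2 (ERAP1 higher, HLA-C lower) and 1, ERAP1, without WT library 1 and without M3 library 2. In order of level per kb the members were B2M, HLA-C, ERAP1, HLA-B, TAPBP, NLRC5 and TAP2, with TAP1 and HLA-E at 0. Of these neighbours HLA-B and TAPBP overlapped over the libraries (0.453 to 1.17 and 0.329 to 0.895 CPM per kb). The places of the MHC genes in this order hold for counts only.

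**Figure D4:**
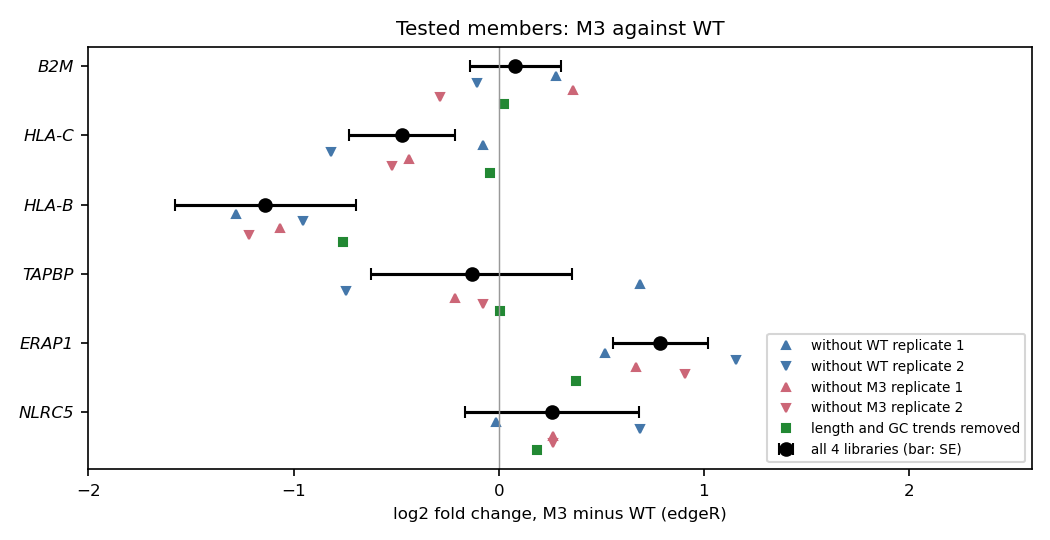
Log2 fold change of M3 against WT for the 6 tested members (circles, all 4 libraries; bars, SE), with each library left out (triangles) and with length and GC trends removed (squares). TAPBP runs from -0.75 to 0.69, and ERAP1 stays above 0 in the settings drawn.

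The transgene is a check of limited use. IWS1 was counted at 370 and 394 CPM with WT against 596 and 599 with M3 (log2 fold change 0.65 ± 0.12, edgeR adjusted p = 0.0225). Reads of the vector and of the endogenous gene are not separated in this count. The share of reads in no annotated feature also moved with the groups, at 23.3% and 23.2% in the WT libraries and 27.5% and 25.6% in the M3 libraries, and its part in the differences given here was not tested.

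The other genes of the pathway were taken as 8 lists, in which 0% to 21.4% of the tested genes passed, where 15.8% of all tested genes did, so the counts set no list apart. Of 15 peptide supply genes, most of them proteasome genes, 13 were tested, 2 fell (15.4%) and none rose, with a median log2 fold change of -0.25. PSME1 and PSME2, which form the proteasome activator PA28 that interferon induces, both fell. PSME1 was at 41.4 and 34.0 CPM with WT against 21.2 and 24.0 with M3 (log2 fold change -0.73 ± 0.16, edgeR adjusted p = 0.0277), and PSME2 at 80.7 and 62.7 with WT against 41.2 and 47.8 with M3 (-0.68 ± 0.16, edgeR adjusted p = 0.0317). Neither passed with the length and GC trends removed (-0.37 and -0.27), with total-count scaling or without M3 library 1. The immunoproteasome subunits PSMB8 and PSMB9, which are encoded beside TAP1, had no reads, while the third, PSMB10 on chromosome 16, was at 22.9 ± 2.22 CPM (SD, n = 2) in WT and 16.6 ± 1.26 in M3 (edgeR adjusted p = 0.0787).

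Of 11 genes of peptide loading and folding in the endoplasmic reticulum 10 were tested, and LNPEP alone passed (10%), with a median of -0.07. Calreticulin (CALR), the lectin chaperone of the loading complex, was at 1181 and 945 CPM with WT against 783 and 873 with M3 (edgeR adjusted p = 0.144). Calnexin (CANX), which holds the free heavy chain, was at 547 and 580 with WT against 678 and 692 with M3 (edgeR adjusted p = 0.152). TAPBPL, the peptide editor related to tapasin and encoded on chromosome 12, was at 4.81 and 6.17 CPM with WT against 3.27 and 2.63 with M3 (-0.91 ± 0.28, edgeR adjusted p = 0.0577).

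Among 15 transcription factors of class I promoters 14 were tested, 2 rose and 1 fell (21.4%), with a median of -0.20. CREB1 and ATF1, known as factors of cAMP response elements, rose. Their binding to the promoters shown above was not tested. CREB1 was at 46.1 and 52.7 CPM with WT against 76.8 and 69.4 with M3 (0.56 ± 0.14, edgeR adjusted p = 0.0329). ATF1 was at 9.45 and 10.9 with WT against 16.4 and 15.3 with M3 (0.63 ± 0.17, edgeR adjusted p = 0.0426), a call that DESeq2 did not give (adjusted p = 0.0708). USF2, an E-box factor, fell (-0.49 ± 0.13, edgeR adjusted p = 0.0415). With the length and GC trends removed none of the 3 passed, and CREB1 was at -0.18. RFX5, RFXAP and RFXANK, the subunits of the RFX complex that NLRC5 joins, were at 76.4, 15.4 and 38.9 CPM over all libraries and none passed. Per kb of transcript they were at 21.4, 6.69 and 27.7 CPM, where NLRC5 was at 0.207.

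None of 12 interferon receptor signalling genes passed by edgeR (median -0.05). TYK2, a kinase bound to interferon receptors, was at 106 and 111 CPM with WT against 101 and 94.9 with M3 (-0.15 ± 0.12, edgeR adjusted p = 0.400). Of 9 interferon-induced genes 5 were tested and IFI6 fell (20%), from 14.7 and 15.2 CPM to 8.49 and 9.44 (-0.73 ± 0.17, edgeR adjusted p = 0.0319; -0.32 and not passed with the trends removed). Of 8 other heavy chain and class I-like genes 4 had no reads, and none of the 3 tested passed. PROCR, an endothelial-type protein C receptor with a class I fold, was at -0.48 ± 0.22, and the IgG receptor FCGRT at -0.46 ± 0.35.

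Of 12 genes known to silence class I or to limit its surface level, 1 rose and 1 fell (16.7%). PCGF1, a Polycomb subunit, fell, with 35.6 and 34.2 CPM in the WT libraries against 20.6 and 17.1 with M3 (-0.89 ± 0.15, edgeR adjusted p = 0.0204), and it passed with the trends removed but not without M3 library 2. SUZ12, of Polycomb complex PRC2, rose by 0.45 ± 0.12 (edgeR adjusted p = 0.0405) and was at 0.02 with the trends removed. Of 10 ligands of killer and T cells 7 were tested and CD47, a signal against phagocytosis, rose (14.3% of the list; 0.52 ± 0.12, edgeR adjusted p = 0.0294; -0.024 with the trends removed). MICA and MICB, ligands of NKG2D in the same MHC stretch, had no reads.

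Cell identity was read from markers. The 9 adrenergic neuroblastoma markers summed to 4348 to 4789 CPM in WT and 3285 to 3327 in M3, and 4 of them fell. The 9 mesenchymal-state markers, a state known for more class I, summed to 114 to 142 CPM in WT and 134 to 153 in M3, with WWTR1 at 0 and none passing. The 8 haematopoietic markers summed to 85.7 to 108 CPM in WT and 78.6 to 83.0 in M3. Nearly all of this was CD74, the class II invariant chain, at 86.0 CPM over all libraries, while the leukocyte marker PTPRC had 2 reads in all and CD3E none. The 6 fibroblast and endothelial markers summed to 94.4 to 94.7 CPM in WT and 123 to 124 in M3, and the 5 Schwann markers to 5.29 to 6.22 and 3.19 to 4.04. The part of the changed marker sums in the values above was not tested.

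The genes whose CPM profile lay nearest to that of B2M over the 4 libraries, among 11135 tested genes of at least 5 CPM, were BTG3, RNF125 and KANSL1. Their root mean square distances were 0.0610, 0.0699 and 0.0736 on the log2 scale. BTG3 was at 12.0 and 9.88 CPM with WT against 9.58 and 13.8 with M3, with M3 library 2 highest as in B2M. Nearest to the mean of the 6 tested members, a nearly flat profile, were PPP1R9B, VPS33A and RCN1, at distances of 0.00334, 0.00492 and 0.00565. With 4 libraries such likeness is a description only.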

How the data were processed

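Poly(A) RNA of 4 KELLY libraries was measured as read counts. The deposited values are whole-number counts per gene symbol, not normalised. The build hg38 and the tools DESeq2, HTSeq and HISAT2 2.1.0 are named per the submitters' processing notes. Annotation, strand setting, contigs in the index and handling of reads that align to several places were each not given in the sources used here. Of the 5 summary rows per library, 3 (among them reads aligned to several places) are 0. Reads of no feature made up 23.3% and 23.2% (WT) and 27.5% and 25.6% (M3). These rows were left out of library sizes.

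Groups came from the labels. M3 was compared with WT over all genes with edgeR 4.0.16 (R 4.3.3): filterByExpr, TMM, robust quasi-likelihood F test, Benjamini-Hochberg adjustment, threshold 0.05. The SE is the log2 fold change over the root of F. Counts within each group spread beyond Poisson error (chi-square per degree of freedom 22.4 for WT, 4.45 for M3, and 23.6 to 72.1 between libraries of different groups, the lowest for WT 2 against M3 2). An exact permutation test of 2 against 2 cannot reach the threshold. The code was tested on simulated data.

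Levels between genes use CPM per kb of the longest GENCODE release 29 transcript. Positions and promoters came from RefSeq GRCh38.p14 (the assembly that hg38 names): 26073 symbols matched by symbol and 1052 by synonym. A promoter entry was found for 7 members. The members, lists and tests were chosen with earlier results of these data known. Named genes are the members, IWS1, up to 4 passing genes per list by size or the 2 of highest CPM, and the nearest profiles. PSMB8, PSMB9, PSMB10, CALR, CANX, TAPBPL, ERAP2, CAST, CIITA, the RFX genes, CD74, PTPRC, CD3E, WWTR1, HLA-F, HLA-G, MICA, MICB and the genes around the MHC were named after their values were seen. A gene that this rule names is not reported here. Alternatives were other scaling, filters, the replicate block, removal of length and GC trends (splines), DESeq2 1.42.0, limma-voom (limma 3.58.1), leaving out 1 library at a time and an adjusted p of 0.01. The lone library that this leaves in 1 group is taken to vary as the 2 others do.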

Additional observations from a re-analysis of the deposited data

How the results depend on the processing

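Of the members' 87 values under alternatives, 7 turned sign and 8 newly passed, 7 of them ERAP1. No other member passed in the settings tried except HLA-C without WT library 2. The number of members that passed, 0 in the reported fit, was 1 (ERAP1) with no count filter, with the replicate block, with DESeq2 and with crossed replicate numbers, and ranged from 0 to 2 with a library left out. B2M turned to -0.29 and -0.11 without M3 library 2 and WT library 2 (highest 0.36), NLRC5 to -0.014 without WT library 1, and TAPBP to 0.69 without WT library 1 (lowest -0.75), 0.13 with limma-voom, 0.0048 with the length and GC trends removed and 0.082 with the block added.

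The number of genes that differed, 2232, was 1120 with total-count scaling (856 higher, 264 lower, against 1295 and 937), 3945 without a count filter, 685 with the trends removed and 842 with the block added, 0 at an adjusted p below 0.01, and 359 (without M3 library 1) to 6735 (without WT library 2) with a library left out. Total-count scaling raised the median log2 fold change by 0.12, so directions are relative to the TMM centre. With the trends removed CREB1 (-0.18, and -0.18 with the block) and CD47 (-0.024 in both) turned. Of the 10 genes called by name beside IWS1, 9 lost the call there, 6 with total-count scaling, 8 without M3 library 1 and 7 without M3 library 2. The cause was not tested. IWS1 lost it without either M3 library (0.65 and 0.64).

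The labels do not say that same-numbered libraries share a culture or day, so the numbers were not taken as pairs. Same-numbered libraries deviated in opposite ways (r = -0.14 across genes). The crossed value is then 0.14 by construction, so this r cannot settle whether libraries are paired. The replicate block gave 2315 genes, with adjusted p of 0.0633 for USF2 and 0.0979 for SUZ12, which did not pass there, and 0.0107 for ERAP1, which did, and crossed numbers, a choice made after seeing the data, gave 5314. Few reads limit what can be said of the 6 members in the MHC.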
